A study of Mus musculus with 6 samples.

Results

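Charging of transfer RNAs and the supply of amino acids were examined through 42 genes. The cells were cultured primary mouse muscle stem cells of a Med23 knockout group and a control group. The 42 genes were taken by gene symbol. They comprise 20 cytosolic aminoacyl-tRNA synthetase genes, 8 amino acid transporter genes, 9 stress factor genes and 5 genes of amino acid synthesis. All 42 had a row among the 32973 genes of the deposited table, and 40 passed the filter of a mean of at least 1 FPKM, as 12336 genes of the table did. Pycr1 and Cbs did not pass. FPKM, the unit of the table, counts sequenced fragments per length of transcript and per size of library.

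The control group (Ctrl, 3 libraries) was of the genotype Med23flox/flox. The knockout group (Med23KO, 3 libraries) was Med23flox/flox::Pax7CreERT2, so both groups carried loxP-flanked Med23 and the knockout group alone carried the tamoxifen-inducible Cre driven by Pax7. Cre alone was not a group, and effects of Cre and of Med23 loss cannot be told apart. The labels give the treatment as none, give no age, do not mention tamoxifen and do not say whether libraries came from separate animals. The p-values below thus rest on variation among the deposited libraries, part of which may be technical. Sorted cells were grown for 3 days on collagen in serum with basic fibroblast growth factor. The comparison asks how loss of this Mediator subunit, part of the bridge between transcription factors and RNA polymerase II, alters the transcriptome.

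As background, an aminoacyl-tRNA synthetase joins one amino acid to its transfer RNA, and every proliferating cell needs the full set. When uncharged transfer RNA builds up or proteins misfold in the endoplasmic reticulum, kinases phosphorylate the initiation factor eIF2. Most translation then falls while that of the transcription factor ATF4 rises, and ATF4 with its C/EBP partners activates genes for synthetases, transporters and amino acid synthesis, as well as stress factors such as Ddit3 and Trib3. The activity of ATF4 is set largely by translation, so its mRNA level is only one part of it.

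Med23 itself had 10.4, 11.7 and 10.2 FPKM in the controls and 5.10, 5.86 and 4.23 FPKM in the knockouts, 47.1% of the control mean (limma adjusted p = 0.0197, and up to 0.108 without 1 library). The muscle stem cell markers (7 of 7 detected) summed to between 1126 and 1807 FPKM in the Ctrl libraries and between 975 and 1726 FPKM in the Med23KO libraries. Markers of differentiated myocytes summed to 93.3 to 125 and 177 to 195 FPKM, and fibroblast markers to 151 to 198 and 209 to 317 FPKM, so both sums were higher in each knockout library. The endothelial sums (5.26 to 10.3 and 4.31 to 7.08 FPKM) and leukocyte sums (12.1 to 25.1 and 11.9 to 38.2 FPKM) overlapped, and 0 genes of these lists were at 0 in every library. Single genes carried much of these sums, with Myod1 at a mean of 867 FPKM in the stem cell list and Col3a1 at 201 FPKM in the fibroblast list. Lyz2, at 18.3 FPKM, made up most of the leukocyte sums, and Ptprc of that list stood at 0.048 FPKM. The markers within a list also differed. Itga7 stood at 59.0% and Cdh15 at 175% of the control mean, neither past the test. Of 6 tested myocyte markers, 5 had a log2 fold change above 0, with Myog at 276% of the control mean. Mymx, at 592%, was called higher (limma adjusted p = 0.0385, and up to 0.153 without 1 library). Tnnt2 alone was below 0, at 74.4%, and did not pass the test. The part of these cell types in the results below was not tested, and in bulk RNA fewer cells of a type and less RNA per cell cannot be told apart. Library Med23KO-3 stood apart from the other knockouts in several transporter and stress genes, and Ctrl-3 in part of the same genes, as given below.

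Of the 40 tested members, 2 fell and 0 rose in the knockout (limma, Benjamini-Hochberg adjusted p under 0.05). The falls were in Stc2, which encodes the secreted glycoprotein stanniocalcin 2, and Aldh18a1, which encodes the enzyme that starts proline synthesis from glutamate. Across all tested genes, 1.42% were called lower and 1.49% higher, 175 and 184 genes. With equal library medians that split was 205 lower and 363 higher. At an unadjusted p under 0.05, 15 members were lower and 1, the glutathione-degrading enzyme gene Chac1, was higher, where 10.9% and 8.84% of all tested genes were. In 16 members each knockout library lay below each control library, and in 1, again Chac1, above, against 14.7% and 10.0% of all tested genes. By the q-values in the authors' deposited table, 9 members were called lower and 1 higher (q under 0.05), against 7.27% and 8.34% of the same tested genes. The shares given here are also the baseline for the same counts in the lists below.

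The median log2 fold change, knockout against control, was -0.23 over the 20 synthetases and -0.44 over the 3 tested synthesis genes, but -0.04 over the 8 transporters and -0.02 over the 9 stress factors. It was -0.03 over all tested genes. The values of the synthetases had an SD of 0.0940 across genes, against 0.334 for the transporters, 0.419 for the stress factors and 0.353 for all tested genes. The SD was 0.120 for mitochondrial synthetases, 0.154 for the eIF2 factors, 0.161 for scaffold and elongation factor 1 genes and 0.162 for endoplasmic reticulum chaperones and the unfolded protein response, lists described further on. All fold changes here are on the log2(FPKM + 1) scale, which understates the change of low genes. These medians and SDs describe the lists and were not tested. The lists also differ in level. Mean FPKM over the 6 libraries ran from 20.5 (Wars) to 91.1 (Nars) in the synthetases and from 2.07 (Trib3) to 139 (Atf4) in the stress factors. The part of level in the SDs was not tested. The median of the transporters was 0.024 with quantile normalization, and that of the stress factors was 0.0071 with equal medians, 0.034 with library weights and 0.19 without Med23KO replicate 3.

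**Figure D1:**
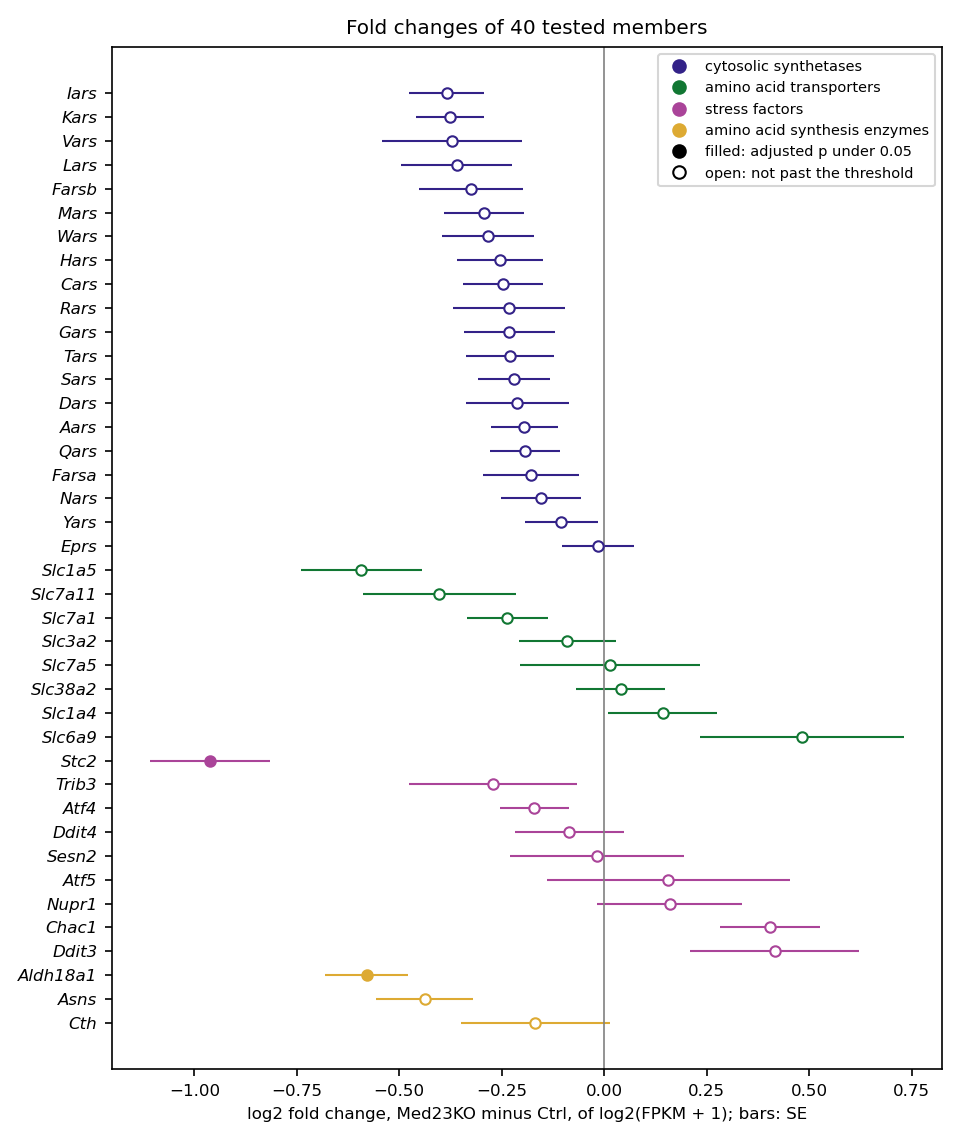
Log2 fold change (horizontal axis, Med23KO minus Ctrl on the log2(FPKM + 1) scale, bars are SE) of each of the 40 tested members, ordered within 4 groups. The filled points, Stc2 at -0.96 and Aldh18a1 at -0.58, are the members past the limma threshold. The 20 synthetases lie between -0.38 and -0.02 (Eprs alone turns above 0 under quantile normalization, equal medians and library weights, and without Ctrl-3).

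The promoters of 5 members are given here because these genes stand for the patterns reported here: the 2 members that fell, the best-known amino acid response gene Asns, the cystine transporter gene Slc7a11 and the synthetase gene Tars. Each line gives the 250 bases before the RefSeq start on GRCm38.p6, read 5′ to 3′ along the gene. Capitals mark matches on either strand to TGATGNAA, the core of elements bound by C/EBP-ATF dimers, and to the E-box CACGTG, which MYC and other basic helix-loop-helix proteins bind. No match of one motif overlapped a match of the other in these windows.

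Stc2, chr11:31370062-31370311, minus strand: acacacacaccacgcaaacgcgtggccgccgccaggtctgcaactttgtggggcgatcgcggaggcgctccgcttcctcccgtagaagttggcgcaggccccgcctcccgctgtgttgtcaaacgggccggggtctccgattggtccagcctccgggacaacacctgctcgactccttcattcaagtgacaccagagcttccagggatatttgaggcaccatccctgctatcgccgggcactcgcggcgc
Aldh18a1, chr19:40588464-40588713, minus strand: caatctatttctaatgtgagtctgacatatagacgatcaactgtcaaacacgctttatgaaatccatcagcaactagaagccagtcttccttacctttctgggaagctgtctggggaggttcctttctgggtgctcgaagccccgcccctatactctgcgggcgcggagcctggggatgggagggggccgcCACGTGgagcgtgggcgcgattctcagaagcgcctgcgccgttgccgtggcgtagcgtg
Asns, chr6:7693210-7693459, minus strand: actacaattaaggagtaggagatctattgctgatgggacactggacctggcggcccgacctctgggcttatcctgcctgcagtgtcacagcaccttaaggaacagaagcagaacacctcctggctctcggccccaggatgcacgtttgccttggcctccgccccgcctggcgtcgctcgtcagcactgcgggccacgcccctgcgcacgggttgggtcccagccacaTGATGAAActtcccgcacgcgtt
Slc7a11, chr3:50443614-50443863, minus strand: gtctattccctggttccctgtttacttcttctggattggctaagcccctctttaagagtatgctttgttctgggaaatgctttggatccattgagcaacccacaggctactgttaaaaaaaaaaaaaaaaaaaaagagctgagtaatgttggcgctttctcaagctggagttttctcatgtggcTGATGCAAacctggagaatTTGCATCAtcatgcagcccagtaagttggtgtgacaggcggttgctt
Tars, chr15:11399659-11399908, minus strand: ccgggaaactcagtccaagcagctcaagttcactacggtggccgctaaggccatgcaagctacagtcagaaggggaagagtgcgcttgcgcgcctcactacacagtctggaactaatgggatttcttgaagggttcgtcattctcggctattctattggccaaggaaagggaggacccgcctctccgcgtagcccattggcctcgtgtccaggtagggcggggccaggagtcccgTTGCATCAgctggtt

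Stc2 had neither motif in this window, and Aldh18a1 had the E-box at position -59. Asns had TGATGAAA at position -23, Slc7a11 had TGATGCAA at -66 and its reverse TTGCATCA at -47, and Tars had TTGCATCA at -15 and, past the printed stretch, an E-box at 20. Positions are those of the first base, counted back from the start. RefSeq promoters (300 bases, 250 before the start and 50 from it on) were found for 32 of the 42 members, which gave 36 windows. The members not matched by symbol in the promoter table used here were Cars, Hars, Lars, Nars, Rars, Vars, Wars, Slc7a5, Slc1a5 and Cth. TGATGNAA lay in 33.3% of the member windows and in 3.97% of all 32851 promoters, and CACGTG in 19.4% and 7.15%. The list was chosen around the ATF4 response, so its share of TGATGNAA describes that choice and is no result of the knockout. The synthetases with TGATGNAA (Aars, Gars, Iars, Tars and Yars) had log2 fold changes from -0.38 to -0.10 with a median of -0.23. The 8 synthetases with a window but no match had values from -0.38 to -0.02 with a median of -0.22. The 4 with CACGTG (Aars, Farsb, Iars and Tars) had values from -0.38 to -0.20 with a median of -0.28, and the 9 without it from -0.38 to -0.02 with a median of -0.21. These splits were not tested, and the ranges overlapped in both. A match is a description of letters and not a measured binding site.

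Among the synthetases, 0 of 20 passed the limma test in either direction. All 20 had a log2 fold change below 0, as did 6770 of all 12336 tested genes. Eprs was the exception in other fits, at 0.045 with quantile normalization, 0.048 with library weights, 0.0091 with equal medians and 0.035 without Ctrl-3. At an unadjusted p under 0.05, 10 were lower and 0 higher, against 10.9% and 8.84% of all tested genes. In 10 of the 20 each knockout library lay below each control library, against 14.7% of all tested genes. These were Aars, Cars, Hars, Iars, Kars, Mars, Qars, Sars, Wars and Yars. The authors' deposited table called 4 lower, Iars, Kars, Lars and Vars, with q-values of 0.00952, 0.0099, 0.0155 and 0.00913. It called 7.27% of the same tested genes lower. With library weights limma called 4 synthetases lower, but also 6.89% of all tested genes, and with weights estimated gene by gene 13 synthetases and 13.4% of all tested genes. With the replicate number as a block it called 14 synthetases lower, but also 1577 of all 12336 tested genes. The labels do not say that equal numbers are paired. Relative to the control mean, the median synthetase stood at -0.06, 0.00 and 0.09 (log2) in Ctrl replicates 1, 2 and 3, and at -0.21, -0.27 and -0.20 in the knockout replicates. The library medians of the groups thus did not overlap. Over all tested genes the same medians were 0.03, 0.02 and -0.04 in controls and 0.01, 0.01 and -0.10 in knockouts. The summed FPKM of every knockout library was below that of every control library, and scaling to equal sums, which would make the synthetase differences less negative, was not tried.

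**Figure D2:**
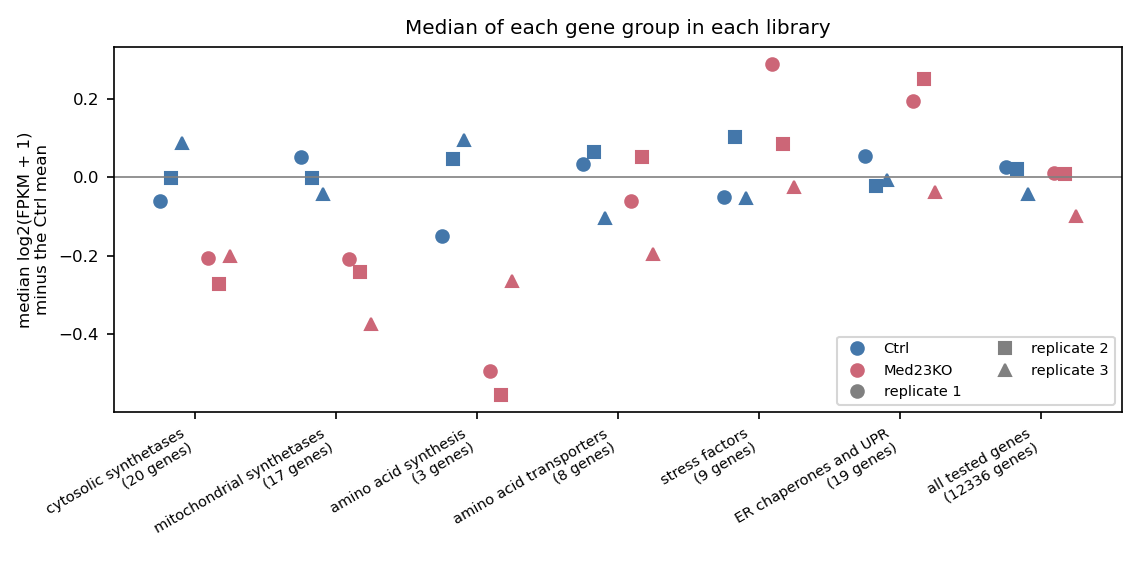
Median over the genes of each list of log2(FPKM + 1) minus the control mean (vertical axis) in each library, with controls in blue and knockouts in red and the replicate number as the symbol. The 3 knockout medians of the cytosolic synthetases (-0.27 to -0.20) lie below the 3 control medians (-0.06 to 0.09), while those of transporters and stress factors overlap the controls.

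The isoleucine enzyme gene Iars had the largest difference of the group. Its level was 62.1, 65.3 and 69.3 FPKM in the Ctrl libraries and 49.1, 47.9 and 53.2 FPKM in the Med23KO libraries. The lysine enzyme gene Kars had 69.1, 69.9 and 66.0 FPKM in the Ctrl libraries and 53.6, 52.8 and 50.9 FPKM in the Med23KO libraries. In both genes every knockout library was lower than every control library, at 76.3% and 76.7% of the control mean. The log2 fold changes were -0.38 (SE 0.0915) for Iars and -0.38 (SE 0.0823) for Kars, and both missed the threshold (limma adjusted p = 0.0715 and 0.06). With Med23KO-3 left out, Iars was past it (adjusted p = 0.0378), and over the fits without 1 library Kars ran from 0.0569 to 0.247.

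The other synthetases spanned smaller or noisier differences. The valine enzyme gene Vars had 88.1, 82.2 and 62.4 FPKM in the Ctrl libraries and 66.6, 64.3 and 48.2 FPKM in the Med23KO libraries. The library with the number 3 was the lowest in each group, and the groups overlapped (log2 fold change -0.37, limma adjusted p = 0.288). Lars, for leucine, had 53.6 ± 6.64 FPKM in the Ctrl libraries and 41.6 ± 5.90 FPKM in the Med23KO libraries (SD, n = 3). Farsa and Farsb, the subunits of the phenylalanine enzyme, stood at 87.7% and 79.4% of their control means. The methionine enzyme gene Mars had 48.5 ± 4.39 and 39.3 ± 0.827 FPKM (SD, n = 3; adjusted p = 0.153). Cars (cysteine), Hars (histidine), Sars (serine) and Wars (tryptophan) stood at 83.5%, 83.3%, 85.5% and 81.3% of control. Dars (aspartate), Gars (glycine), Rars (arginine) and Tars (threonine) stood at 86.3%, 85.2%, 85.1% and 84.9%, with overlapping groups.

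Aars, for alanine, had a narrow spread, with 61.0, 61.4 and 59.9 FPKM in the Ctrl libraries and 54.1, 50.8 and 54.0 FPKM in the Med23KO libraries (log2 fold change -0.20, SE 0.082, limma adjusted p = 0.244). Exons of Exosc6 on the same strand overlap 14.3% of the annotated exon bases of Aars. Qars (glutamine) and Nars (asparagine) stood at 87.3% and 89.8% of control, and Yars (tyrosine) at 92.7%. Eprs, the fused enzyme for glutamate and proline, differed least. It had 75.3, 72.0 and 82.1 FPKM in the Ctrl libraries and 75.8, 75.0 and 75.8 FPKM in the Med23KO libraries, with every knockout library inside the control range (log2 fold change -0.02, SE 0.0873).

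The level of the set spanned a narrow range of FPKM. Nars was the highest, with 91.0, 94.9 and 102 FPKM in the Ctrl libraries and 85.1, 79.7 and 93.8 FPKM in the Med23KO libraries, which overlapped. Wars was the lowest, with 24.8, 22.6 and 20.6 FPKM in the Ctrl libraries and 19.4, 19.3 and 16.7 FPKM in the Med23KO libraries, which did not overlap. Subdivisions that the choice of members did not use, set after the values were seen, gave similar medians. The 9 class I enzymes had a median log2 fold change of -0.28 and the 10 class II enzymes one of -0.22, with bifunctional Eprs in neither. The 8 enzymes of the multisynthetase complex had a median of -0.26 and the 12 others one of -0.23.

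The partners of these enzymes were described from lists that are not part of the member set. Of 3 scaffold and 4 elongation factor 1 genes, which hold the complex together and carry charged transfer RNA to the ribosome, 0 of 7 passed, with 2 lower and 0 higher at an unadjusted p under 0.05 and a median log2 fold change of -0.20. The scaffold gene Aimp2 had 26.4, 26.6 and 26.9 FPKM in the Ctrl libraries and 20.2, 21.3 and 19.9 FPKM in the Med23KO libraries (limma adjusted p = 0.0713). Its groups did not overlap, whereas Aimp1, another scaffold gene, had 33.8 ± 4.90 and 35.9 ± 0.945 FPKM (SD, n = 3). The 17 genes listed as mitochondrial synthetases had a median of -0.23, the same as the cytosolic set to the digits given. Of these, 0 passed the test, and 6 were lower and 0 higher at an unadjusted p under 0.05. In 16 the log2 fold change was below 0, as in 6770 of all 12336 tested genes. The mitochondrial methionine enzyme gene Mars2 had the smallest adjusted p of that list (0.116), at 10.3 ± 0.464 and 7.34 ± 1.17 FPKM (SD, n = 3).

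Among the synthesis genes, Aldh18a1 (mm10 chromosome 19, positions 40550257 to 40588463, minus strand) fell. It had 20.2, 20.1 and 19.4 FPKM in the Ctrl libraries and 13.6, 11.7 and 13.6 FPKM in the Med23KO libraries. Its groups were far apart relative to their spread, at 65.4% of the control mean (log2 fold change -0.58, SE 0.101, limma adjusted p = 0.0317). Asns, the asparagine synthetase gene, had 41.9, 48.5 and 49.8 FPKM in the Ctrl libraries and 32.8, 31.4 and 38.6 FPKM in the Med23KO libraries. Those groups did not overlap either, but the difference missed the threshold (log2 fold change -0.44, SE 0.118, limma adjusted p = 0.096). With Med23KO-3 left out it passed (adjusted p = 0.0303), and the authors' deposited table called it lower (q = 0.00486).

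The remaining synthesis genes were close to the detection range. Pycr1, which completes proline synthesis, had 0.748, 1.07 and 0.729 FPKM in the Ctrl libraries and 0.758, 0.596 and 0.593 FPKM in the Med23KO libraries. Cbs and Cth make cysteine from homocysteine. Cbs had 0.558, 0.653 and 0.619 FPKM in the Ctrl libraries and 0.842, 0.538 and 0.508 FPKM in the Med23KO libraries, and Cth had 1.46 ± 0.430 and 1.18 ± 0.231 FPKM (SD, n = 3). The groups overlapped in all 3 genes. Of 18 further tested genes of amino acid synthesis and turnover, 0 passed, with 3 lower and 0 higher at an unadjusted p under 0.05 and a median of -0.10.

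Transporters gave values in both directions, 4 below and 4 above 0, and 0 of 8 passed the limma test. At an unadjusted p under 0.05, 2 were lower and 0 higher. The glutamine and neutral amino acid carrier gene Slc1a5 had 59.0, 57.5 and 47.1 FPKM in the Ctrl libraries and 35.1, 42.4 and 30.5 FPKM in the Med23KO libraries. All knockout libraries lay below all controls, at 66.0% of the control mean (log2 fold change -0.59, SE 0.147, limma adjusted p = 0.079). With the libraries scaled to equal medians it was past the threshold. Slc7a11, whose product exchanges cystine for glutamate, had 18.3, 22.02 and 23.5 FPKM in the Ctrl libraries and 12.2, 15.8 and 20.3 FPKM in the Med23KO libraries. Here the third knockout library reached into the control range (log2 fold change -0.40, adjusted p = 0.29). The authors' deposited table called both Slc1a5 and Slc7a11 lower, the latter with a q-value of 0.00708, as did the limma fits with either kind of library weights. The cationic amino acid carrier gene Slc7a1 had 27.5 ± 2.10 and 23.2 ± 1.14 FPKM (SD, n = 3), with groups that did not overlap.

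The leucine carrier gene Slc7a5 and its heavy chain gene Slc3a2 showed little difference. Slc7a5 had 57.7, 49.2 and 41.7 FPKM in the Ctrl libraries and 60.7, 57.2 and 35.0 FPKM in the Med23KO libraries, with Med23KO-3 the lowest of all 6 libraries. Slc3a2, which also pairs with Slc7a11, had 59.5 ± 5.05 and 55.9 ± 6.35 FPKM (SD, n = 3). Slc38a2, a sodium-coupled neutral amino acid carrier that amino acid starvation induces, was the highest transporter, with 129, 152 and 154 FPKM in the Ctrl libraries and 136, 150.3 and 159 FPKM in the Med23KO libraries. The groups overlapped in part, with Ctrl-1 the lowest and Med23KO-3 the highest of all 6 libraries.

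Slc6a9, a glycine carrier, was the lowest transporter and had the largest positive value among them. Its level was 10.5, 8.50 and 7.33 FPKM in the Ctrl libraries and 16.2, 14.8 and 8.10 FPKM in the Med23KO libraries. Med23KO-1 and Med23KO-2 were above every control, and Med23KO-3 was inside the control range (log2 fold change 0.48, SE 0.249, limma adjusted p = 0.345). With Med23KO-3 left out the gene passed (adjusted p = 0.0235), and the authors' deposited table called it higher. Exons of Ccdc24 on the other strand overlap 27.8% of its annotated exon bases, and although the libraries were strand-specific, the counting was not stated to use strand. Slc1a4, for alanine, serine and cysteine, had 10.8 ± 0.0749 and 12.1 ± 2.01 FPKM (SD, n = 3), again with Med23KO-3 (9.89 FPKM) below the other knockouts. Of 15 further tested transporters, 0 passed, with 3 lower and 2 higher at an unadjusted p under 0.05. The taurine carrier gene Slc6a6 had the smallest adjusted p (0.0611), at 189, 226 and 185 FPKM in the Ctrl libraries and 267, 291 and 272 FPKM in the Med23KO libraries.

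**Figure D3:**
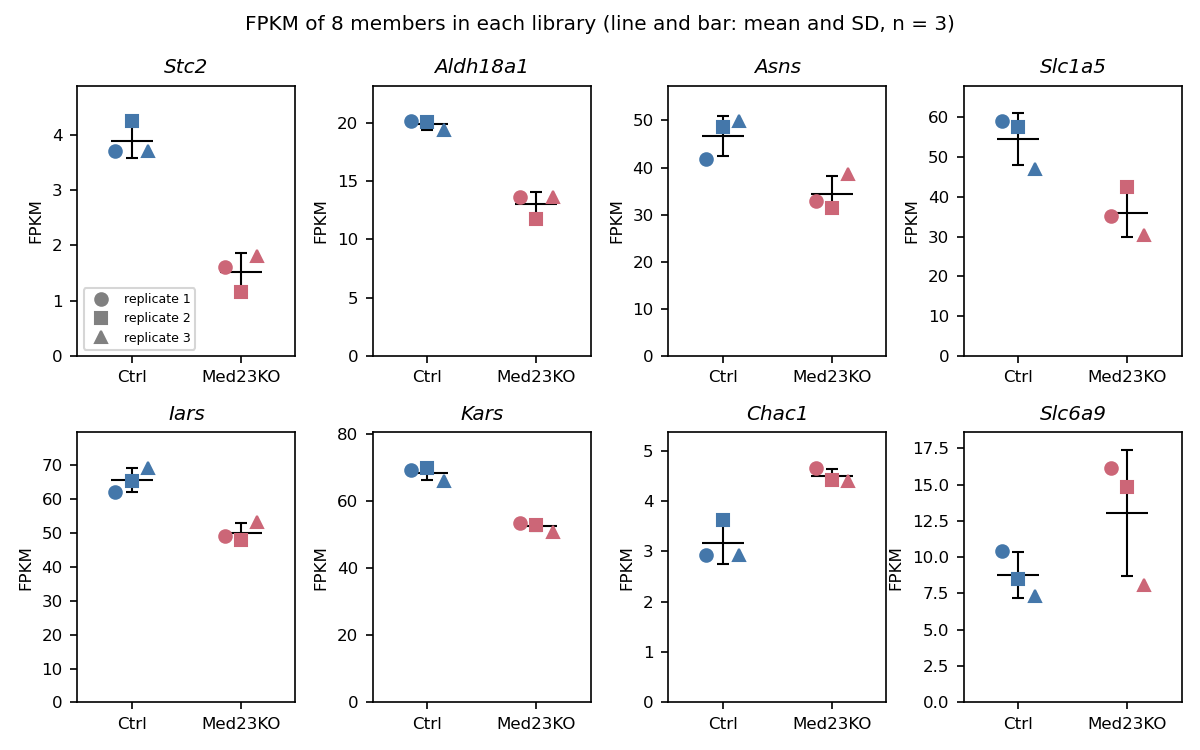
FPKM (vertical axis, from 0) of 8 members in each library, with symbols for the replicate number and lines and bars for the mean and SD of 3 libraries. Stc2, Aldh18a1, Asns, Slc1a5, Iars and Kars are lower and Chac1 higher in every knockout library than in every control library, and Slc6a9 overlaps through Med23KO-3 (8.10 FPKM).

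Stress factors also went both ways. Stc2 (mm10 chromosome 11, positions 31357307 to 31370074, minus strand) had the largest difference of all 42 members. It had 3.71, 4.24 and 3.71 FPKM in the Ctrl libraries and 1.60, 1.16 and 1.80 FPKM in the Med23KO libraries. Every knockout library was below every control library, and the knockout mean was 39.1% of the control mean (log2 fold change -0.96, SE 0.147, limma adjusted p = 0.0233). With Med23KO-3 left out, Stc2 and Aldh18a1 remained called (adjusted p = 0.00954 and 0.0177), but with any other library left out they did not pass, with adjusted p-values up to 0.129 and 0.171. Without a filter on low values they missed it narrowly, at 0.0584 and 0.0546.

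The transcription factor gene Atf4 was the most abundant stress factor. It had 153, 147 and 142 FPKM in the Ctrl libraries and 137, 127.3 and 127.4 FPKM in the Med23KO libraries, which did not overlap, at 88.8% of control (log2 fold change -0.17, limma adjusted p = 0.317). Atf5, a related factor, had 38.5, 34.7 and 23.7 FPKM in the Ctrl libraries and 48.0, 41.5 and 22.2 FPKM in the Med23KO libraries. Both libraries numbered 3 were the lowest of their groups, and the groups overlapped. Trib3, a pseudokinase gene induced by ATF4, was the least abundant, with 1.73, 2.71 and 2.61 FPKM in the Ctrl libraries and 1.73, 1.23 and 2.42 FPKM in the Med23KO libraries. Those values overlapped as well.

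Chac1 was the member whose knockout libraries all lay above the controls, with 2.93, 3.62 and 2.93 FPKM in the Ctrl libraries and 4.66, 4.41 and 4.39 FPKM in the Med23KO libraries. The difference missed the threshold (log2 fold change 0.40, SE 0.123, limma adjusted p = 0.13). Ddit3, which encodes the factor CHOP, had 3.73, 2.95 and 3.59 FPKM in the Ctrl libraries and 5.32, 6.43 and 3.33 FPKM in the Med23KO libraries. Med23KO-3 again lay with the controls (adjusted p = 0.328, and 0.0404 without that library). Exons of Mars on the other strand overlap 3.97% of the exon bases of Ddit3. Sesn2, a leucine sensor that restrains mTORC1, had 8.411 ± 1.60 and 8.398 ± 2.28 FPKM, and Ddit4, another mTORC1 inhibitor, had 30.5 ± 3.78 and 28.7 ± 3.35 FPKM (SD, n = 3). Nupr1, a stress-induced chromatin protein gene, had 7.50 ± 1.74 and 8.39 ± 1.09 FPKM (SD, n = 3), and none of these 3 passed.

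**Figure D4:**
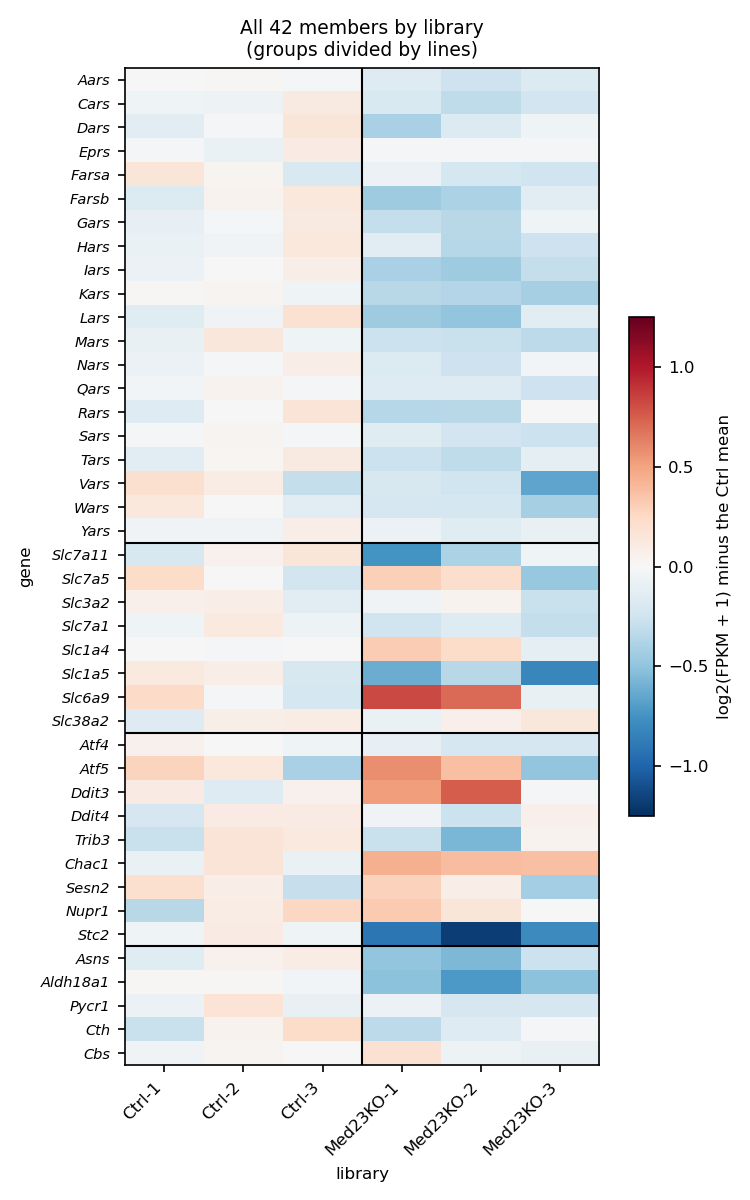
Each of the 42 members (rows, in 4 groups divided by lines) in each library (columns), coloured by log2(FPKM + 1) minus the control mean. The synthetase rows are mostly blue across the 3 knockout columns, and Atf5, Ddit3, Slc6a9 and Slc7a5 differ between Med23KO-3 and the other knockouts.

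Genes around the pathway were read from the same fit. The eIF2 kinases, eIF2 and its exchange and phosphatase factors had 0 of 16 past the limma test, with 2 lower and 0 higher at an unadjusted p under 0.05 and a median log2 fold change of -0.18. The gene of the starvation kinase GCN2, Eif2ak4, had 7.67 ± 0.232 and 8.203 ± 1.42 FPKM, and that of the endoplasmic reticulum kinase PERK, Eif2ak3, had 6.27 ± 0.980 and 6.36 ± 0.919 FPKM (SD, n = 3). The smallest adjusted p, 0.125, was that of the exchange factor subunit gene Eif2b5, at 38.3 ± 1.70 and 30.2 ± 2.54 FPKM (SD, n = 3). The genes of amino acid sensing by mTORC1 had 0 of 24 past the test, with 3 lower and 2 higher at an unadjusted p under 0.05 and a median of -0.02. Rragd, a Rag GTPase gene, had the smallest adjusted p there (0.102), at 12.2 ± 0.987 and 16.6 ± 1.63 FPKM (SD, n = 3).

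Of 14 further tested genes linked to ATF4, 2 fell and 0 rose, both in serine and one-carbon metabolism, with a list median of -0.15. At an unadjusted p under 0.05, 5 of the list were lower and 2 higher. Phgdh, the first enzyme gene of serine synthesis, had 75.1, 71.0 and 68.7 FPKM in the Ctrl libraries and 33.5, 32.5 and 32.2 FPKM in the Med23KO libraries (log2 fold change -1.11, SE 0.0848, limma adjusted p = 0.00356). Shmt2, which turns serine into glycine in mitochondria, had 70.1, 71.3 and 64.3 FPKM in the Ctrl libraries and 46.0, 48.3 and 43.1 FPKM in the Med23KO libraries (adjusted p = 0.0271). In both genes the groups lay far apart. Phgdh stayed past the threshold without any 1 library (largest adjusted p = 0.0428), and Shmt2 did not (0.145). Vldlr, a lipoprotein receptor gene of the same list, had 2.10 ± 0.299 and 4.35 ± 1.23 FPKM (SD, n = 3), on the other side of 0 (adjusted p = 0.0874). Cebpd was also above 0, at 4.77 ± 1.12 and 9.60 ± 3.66 FPKM (SD, n = 3), with overlapping groups (limma adjusted p = 0.145).

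Genes of endoplasmic reticulum chaperones and the unfolded protein response stood on the other side of 0 from the synthetases. Of 19 tested, 16 had a log2 fold change above 0, against 5566 of all 12336 tested genes, with a list median of 0.15. In the limma test 1 rose and 0 fell. Dnajb9, a co-chaperone gene, rose from 16.9, 19.2 and 21.6 FPKM in controls to 28.0, 30.3 and 29.2 FPKM in the Med23KO libraries (log2 fold change 0.58, SE 0.112, limma adjusted p = 0.0419, and up to 0.206 without 1 library). Hspa5, which encodes the main chaperone BiP, had 277 ± 18.7 and 315 ± 17.0 FPKM (SD, n = 3; adjusted p = 0.324). Its groups did not overlap, as in 6 genes of this list. The knockouts were above in all 6, as they were in 10.0% of all tested genes. The list median of Med23KO-3 was -0.04, just below the controls (-0.02 to 0.05), whereas the other knockouts stood at 0.19 and 0.25.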

How the data were processed

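RNA was measured in 6 libraries, 3 per group. FastQC, cutadapt, STAR and Cuffdiff with mm10 are named in the submitters' processing notes; versions, annotation and the strand setting of the counting on these strand-specific libraries are not given there. The deposited values are FPKM per library, and the table also holds the authors' q-values of their own comparison, per the file headers. Depth per library is unknown, so the 3 libraries of a group alone show the precision. The FPKM of a library summed to 746973, 717437 and 697886 in Ctrl and to 661891, 675095 and 599738 in Med23KO. Every knockout sum was below every control sum. Scaling to equal sums would thus move the fold changes upward, including those of the synthetases. It was not among the alternatives, and the size of that shift was not examined. With equal library medians the median log2 fold change of the synthetases was -0.21. Exons of 9 members overlap another gene in GENCODE vM21 (Aars, Cars, Farsb, Hars, Mars, Yars, Slc6a9, Atf5 and Ddit3), and these are uncertain to that extent.

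Values were transformed to log2(FPKM + 1), those genes averaging 1 FPKM or more were kept, and all 12336 were fitted with limma 3.58.1 in R 4.3.3 (mean-variance trend, genotype as the factor, two-sided, Benjamini-Hochberg adjustment over all tested genes, threshold 0.05). An exact permutation test of 3 against 3 libraries cannot go below p = 0.1 and was not used. On simulated data for this comparison (12336 genes), 35.8%, 74.6% and 97.0% of genes changed 1.5-fold, 2-fold and 4-fold were recovered. The changed genes were drawn from levels above those of Stc2, Chac1, Ddit3, Trib3 and Cth, so recovery at such low levels was not simulated. The simulated noise was independent between libraries, whereas deviations of some of the real libraries were correlated. The members and lists were chosen with earlier results of these data known. Values in every library are given for called members, those with an adjusted p under 0.15, and the highest and lowest of each group; some others were added after values were seen. From each other list the called genes, or that with the smallest adjusted p, are named (for the further synthesis and turnover list it is not reported here), and a few more were chosen after their values were seen. Alternatives covered the pseudocount, filter, scaling, variance model, library weights, a replicate block, each library left out and the authors' q-values; leaving out both libraries numbered 3 and gene-by-gene library weights were chosen after seeing the data.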

Additional observations from a re-analysis of the deposited data

How the results depend on the processing

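The member counts depended on the settings. Of the 40 tested members, 0 were called higher and 2 lower. The counts were 0 and 0 without a filter on low values (42 tested), 0 and 1 with a mean of at least 5 FPKM (35 tested, Stc2 not among them), 1 and 9 with library weights, 3 and 20 with weights estimated gene by gene (chosen after seeing the data), 2 and 7 without both libraries numbered 3, and 1 and 9 by the authors' q-values. Without 1 library they ran from 0 to 2 higher and 0 to 4 lower; the 4 lower and 2 higher were found without Med23KO replicate 3. Stc2 and Aldh18a1 kept their direction in every fit they entered. Over all genes, 184 were called higher and 175 lower. The counts were 73 and 84 without a filter, 850 and 850 with library weights, 1686 and 1659 with gene-by-gene weights, 727 and 482 without both libraries numbered 3, and 1029 and 897 by the authors' q-values. Quantile normalization gave 298 higher and equal medians 363. Without 1 library the counts ran from 3 to 749 higher and from 10 to 395 lower. The weights ran from 0.403 (Med23KO-3) to 7.76 (Ctrl-2), and their estimation stopped short of its tolerance, which is why the gene-by-gene estimate was added. The cause of these differences was not tested.

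With the replicate number as a replicate block, 2 members were called higher and 21 lower, 14 of them synthetases, and 1180 and 1577 of all 12336 tested genes. The labels do not say that equal numbers are paired, so the block was not used in the main results. Deviations of same-numbered libraries correlated at 0.44, -0.02 and 0.56 for numbers 1, 2 and 3. Ctrl-1 with Med23KO-3 and Ctrl-3 with Med23KO-1 correlated at -0.57 and -0.42. Ctrl-2 correlated at -0.04 to 0.04 with the knockout libraries, so its own pair cannot show whether numbers are paired. A replicate effect shared by libraries 1 and by libraries 3 was thus not excluded.

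The medians of the 4 member groups moved by less than 1 SD of the library medians, pooled over both groups, under each alternative fit, except that of the stress factors without Med23KO replicate 3 (-0.10 to 0.19 over the fits without 1 library). Members near 0 turned sign without passing the test. Eprs was 0.045 with quantile normalization, 0.0091 with equal medians, 0.048 with library weights, 0.019 with gene-by-gene weights, 0.033 without both libraries numbered 3, and -0.057 to 0.035 without 1 library. Sesn2 was 0.0071 with equal medians, 0.034 with library weights, 0.049 with gene-by-gene weights, 0.045 without both libraries numbered 3, and -0.17 to 0.19 without 1 library, and Slc38a2 was -0.058 with library weights. Without 1 library, Slc7a5 ran from -0.13 to 0.26, Slc3a2 from -0.16 to 0.0021, Slc38a2 from -0.042 to 0.10, Atf5 from -0.058 to 0.48, Ddit4 from -0.19 to 0.0057 and Nupr1 from -0.013 to 0.29.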
